A study of Mus musculus with 10 samples.

Results

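The genes described here are 35 interferon-stimulated genes, a list of named genes that interferon switches on in most cells. The list was taken by gene symbol with no measured value as a criterion, although earlier results of these data were known when it was chosen. All 35 were found among the 36047 genes that the deposited transcripts add up to, and all 35 passed the filter on low counts, which left 13362 genes for testing. They comprise 4 interferon-activated transcription factors, 3 RNA sensors of the RIG-I family, 4 IFIT proteins, 5 members of the OAS family, 4 interferon-induced GTPases, 7 proteins of the ISG15, ubiquitin and ADP-ribosylation group, and 8 other antiviral effectors.

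The libraries came from hepatic stellate cells, the vitamin A-storing pericytes of the liver, isolated in their quiescent state from the liver of male C57BL/6 mice. Cells of both groups were kept in culture for 5 h and then spent 4 h in starving medium. The Areg group (5 libraries) received 500 ng/mL of recombinant mouse Areg, amphiregulin, a growth factor that acts through the EGF receptor, and the control group (5 libraries) did not. The comparison asks how the cells' polyadenylated RNA differed with Areg. No genetic change is named for either group, and nothing in the labels ties the libraries to separate mice or cultures. The p-values thus cover the variation from library to library alone, which can be technical.

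Interferons are secreted antiviral cytokines. Type I interferon binds the IFNAR1 and IFNAR2 receptor chains, the attached JAK kinases are activated, and the signal reaches a complex holding STAT2 and IRF9 that binds interferon-stimulated response elements near the genes it switches on. Many cells also keep these genes at a low level without infection, and their products sense viral RNA, stop translation, degrade RNA or tag proteins with ISG15.

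The letters of this response element were searched in the promoters, and 6 of the stretches that hold its core are shown as examples. The sequences are RefSeq's for GRCm38.p6, read 5′ to 3′ on the strand of the gene, and all lie before the RefSeq start of the gene. Capitals mark each match to the core of the element, which is 2 copies of GAAA with any 2 bases between them, or on the other strand 2 copies of TTTC spaced likewise. Overlapping matches are joined. Isg15 encodes the ubiquitin-like protein that the group's enzymes attach or remove. Ifit1 encodes a protein that binds foreign RNA and restrains its translation, and Ifit3 and Ifit3b encode other proteins of the IFIT family. Rsad2 encodes viperin, an enzyme that makes a chain-terminating nucleotide, and Oas3 encodes a synthase of the second messenger that activates RNase L.
Isg15 (chr4:156200845-156200926, minus strand): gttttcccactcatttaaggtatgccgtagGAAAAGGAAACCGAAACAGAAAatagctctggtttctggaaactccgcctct
Ifit1 (chr19:34640755-34640843, plus strand): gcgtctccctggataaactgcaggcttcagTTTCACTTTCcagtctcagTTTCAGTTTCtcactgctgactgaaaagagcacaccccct
Ifit3 (chr19:34583343-34583446, plus strand): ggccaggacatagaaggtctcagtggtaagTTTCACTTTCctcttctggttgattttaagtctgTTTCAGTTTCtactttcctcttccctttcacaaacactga
Ifit3b (chr19:34607739-34607842, plus strand): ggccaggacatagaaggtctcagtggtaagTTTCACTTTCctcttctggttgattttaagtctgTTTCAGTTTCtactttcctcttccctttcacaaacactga
Rsad2 (chr12:26456533-26456602, minus strand): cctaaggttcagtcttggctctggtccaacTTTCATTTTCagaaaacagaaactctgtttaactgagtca
Oas3 (chr5:120777695-120777764, minus strand): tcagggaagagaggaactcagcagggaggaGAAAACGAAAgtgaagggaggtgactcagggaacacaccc
Isg15 held 3 overlapping matches in a single run, Ifit1, Ifit3 and Ifit3b held 2 separate matches each, and Rsad2 and Oas3 held 1 each. The Ifit3 and Ifit3b stretches were identical over all 104 bases (0 mismatches), although the genes lie 19.2 kb apart.

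RefSeq promoter windows of 300 bases, from 250 before to 50 after the start, were matched by symbol for 26 of the 35 genes. The paired GAAA core was found on either strand in 13 of these 26 (50%): Bst2, Ddx58, Gbp2, Gbp3, Ifih1, Ifit1, Ifit3, Ifit3b, Isg15, Oas1a, Oas3, Rsad2 and Stat2. Over the 27025 genes with a window, 1079 (3.99%) held it. In Ddx58 and Ifih1 the match lay after the start, within the transcribed bases. TTCNNNGAA, the palindromic core of the gamma-activated site, was present in the windows of 5 of the 26 (Bst2, Ifi35, Ifit2, Irf1 and Oas1a, 19.2%) against 9.55% of the 27025. No match says only that these letters are not in this window.

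Total estimated counts were 10125184 to 17566891 in the controls and 14365027 to 20057962 in the Areg libraries. The shallowest controls, 3 and 4, stood apart on the first principal component of all genes (46.62 and 28.6, against -16.47 to 0.46 for the other 8 libraries). All 14 stellate cell markers checked were at 1 TPM (a level per transcript length, scaled to the total of each library) or more. Their summed level was 10891 to 11614 TPM in the controls and 10196 to 10541 TPM with Areg. Markers of hepatocytes (1661 to 2622 and 1829 to 2311 TPM), endothelial cells (2802 to 3249 and 2795 to 2872 TPM) and macrophages (799 to 873 and 763 to 837 TPM) were also present, with overlapping sums. Summed markers of cholangiocytes were 48.3 to 59.3 TPM in the controls and 102 to 119 TPM with Areg. Those of vascular smooth muscle were 269 to 288 and 298 to 322 TPM. Both sums were higher in every Areg library than in any control. Of the 6 cholangiocyte markers Spp1 made up most of the sum (45.5 to 115 TPM over the 10 libraries). The sum of the stellate cell markers was lower in every Areg library than in any control. Dcn (mean 5332 TPM) and Ecm1 (mean 3990 TPM) made up most of that sum, and single markers were not compared. The part of these shifts in the results was not tested. In such bulk RNA, fewer cells of a type and less RNA per cell cannot be told apart.

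With Areg, 4 of the 35 genes rose and 1 fell, by edgeR's quasi-likelihood test with Benjamini-Hochberg adjustment over all 13362 genes at a threshold of 0.05. The risers were Ddx58, Ifih1, Irf9 and Herc6, each by 1.21-fold to 1.24-fold, and Trim25 fell to 0.87 of the control level. The 5 genes called make up 14.3% of the list, and 16.7% of all genes tested were called (8.34% higher and 8.32% lower), so the share of genes called was near that of the background. The median log2 fold change of the 35 was 0.17 (range -0.20 to 0.37), with 26 positive and 9 negative, while over all genes tested it was -0.01. The groups did not overlap for 1 of the 35, Ddx58, against 14.7% of all genes tested (7.64% with Areg higher).

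**Figure D1:**
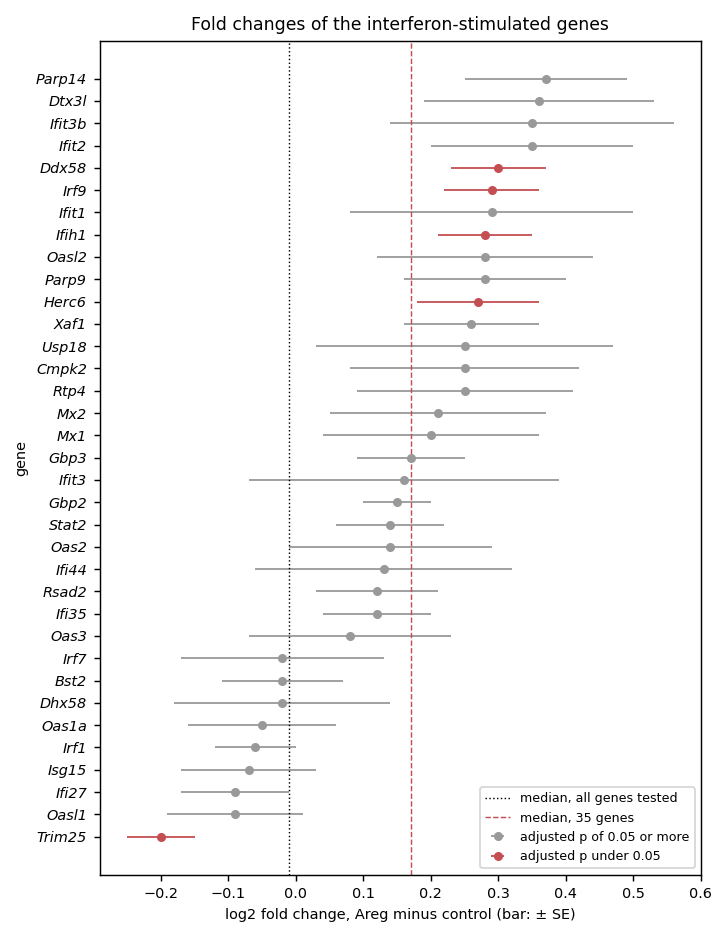
Log2 fold change, Areg over control, for each of the 35 genes, ordered by value, with bars of ± SE, red points for the 5 genes with an edgeR adjusted p under 0.05, and vertical lines at the median of the 35 genes (dashed) and of all genes tested (dotted). Of the 35 points 26 lie above 0, and the values run from -0.20 for Trim25 to 0.37 for Parp14.

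Of the 35 genes, 26 had a mean level above the median gene tested. The mean levels of the 35 ran from 2.98 TPM for Oas3 to 325 TPM for Isg15, with a median of 46.1 TPM, against 17.3 TPM over all genes tested. After Isg15, the highest levels were those of Bst2 (161 TPM) and Rsad2 (149 TPM). The lowest estimated count of any of them in a library was 46.2, for Mx1. Summed over the 35, the level was 1943, 1899, 2182, 2017 and 2112 TPM in controls 1 to 5 and 1867, 2043, 2578, 2147 and 1859 TPM in Areg libraries 1 to 5. The sums overlapped, and Areg 3 lay above all the others.

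The transcription factors are the genes that pass the interferon signal to DNA. Levels are given as CPM, counts scaled to each library's total over the genes tested and adjusted by TMM factors. Irf9 encodes the DNA-contacting subunit of the complex with STAT2 (chr14:55603571-55610030). It stood at 66.0, 60.8, 69.9, 72.1 and 67.5 CPM in controls 1 to 5. In Areg 1 to 5 it stood at 69.9, 82.9, 96.0, 84.8 and 78.3 CPM. Areg 1 lay within the control range and the other 4 Areg libraries above it. Irf9 rose 1.23-fold (67.3 ± 4.29 to 82.4 ± 9.57 CPM, SD, n = 5 each, log2 fold change 0.29, SE 0.07, edgeR adjusted p = 0.0121), and it passed in all 10 fits that left out 1 library (adjusted p 0.00438 to 0.0353). Its locus overlaps Rnf31 on the same strand, so shared reads are uncertain there. It did not pass with transcript lengths as an offset (adjusted p = 0.118) or on the TPM scales (0.176 and 0.178), and over its 25 alternatives the adjusted p ranged from 0.0024 to 0.178.

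Stat2, the partner of IRF9 in that complex, stood at 85.9, 86.2, 95.1, 95.4 and 98.3 CPM in the controls and at 86.6, 98.0, 123, 109 and 91.3 CPM with Areg. Only Areg 3 and Areg 4 lay above the controls, and the gene did not pass (log2 fold change 0.14, SE 0.08, edgeR adjusted p = 0.257). Irf7, the factor that amplifies interferon gene transcription, stood at 64.6, 68.8, 103, 84.0 and 86.2 CPM in the controls and at 70.6, 79.4, 98.7, 86.7 and 65.6 CPM with Areg. The groups covered the same range, and the log2 fold change was -0.02 (SE 0.15, edgeR adjusted p = 0.96). Irf1, a factor also switched on by interferon gamma, had a log2 fold change of -0.06 (adjusted p = 0.53).

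The RNA sensors detect viral RNA in the cytoplasm and signal to the interferon genes. Ddx58, which encodes RIG-I (chr4:40203773-40239828), stood at 86.9, 87.3, 88.4, 87.3 and 90.3 CPM in the controls and at 90.9, 106, 128, 117 and 101 CPM with Areg. Every Areg library lay above every control, with Areg 1 only just above control 5, and the controls differed among themselves by no more than 1.04-fold. Ddx58 rose 1.24-fold (88.0 ± 1.36 to 109 ± 14.5 CPM, SD, n = 5 each, log2 fold change 0.30, SE 0.07, edgeR adjusted p = 0.0100). It passed in all 10 fits that left out 1 library, and over its 25 alternatives the adjusted p ran from 0.00184 to 0.114. It was not called without controls 3 and 4 together (0.114), on the TPM scales (0.0956 and 0.0972), with the length and GC trend removed (0.0744) or with a surrogate variable (0.0573).

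Ifih1, which encodes MDA5, the sensor of long double-stranded RNA (chr2:62595798-62646255), stood at 80.7, 78.4, 65.6, 78.2 and 85.7 CPM in the controls and at 89.6, 95.8, 102, 102 and 84.1 CPM with Areg. Areg 5 fell within the control range and the other 4 lay above it. Ifih1 rose 1.22-fold (77.7 ± 7.42 to 94.7 ± 7.87 CPM, SD, n = 5 each, log2 fold change 0.28, SE 0.07, edgeR adjusted p = 0.0118), and it too passed without any 1 library (adjusted p 0.00834 to 0.0387). It was lost with the length offset (0.0835) and on the TPM scales (0.193 and 0.191), and its alternatives spanned 0.00264 to 0.193. Dhx58, which encodes LGP2, the family member without the signalling domain, averaged 7.96 ± 1.44 and 7.76 ± 1.81 CPM (log2 fold change -0.02, adjusted p = 0.946).

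**Figure D2:**
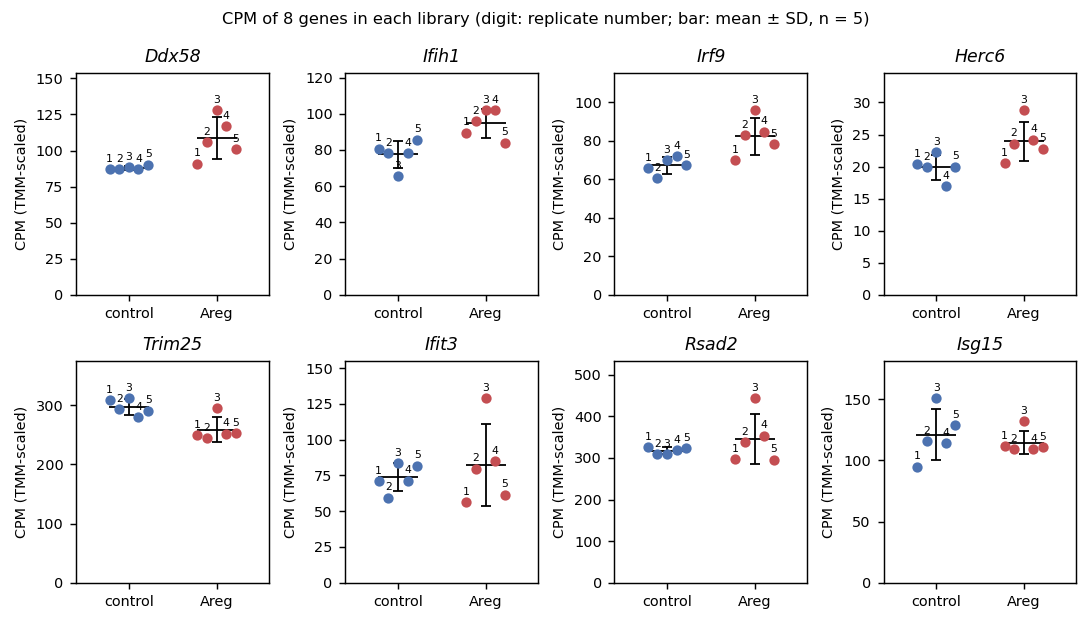
TMM-scaled CPM in each library for Ddx58, Ifih1, Irf9, Herc6, Trim25, Ifit3, Rsad2 and Isg15, with the replicate number at each point and bars for the mean ± SD of 5 control and 5 Areg libraries. For Ddx58 the Areg libraries (90.9 to 128 CPM) lie above the controls (86.9 to 90.3 CPM), and for the other 7 genes the groups overlap.

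The 4 IFIT genes lie in a cluster on chromosome 19, with Ifit1bl1 between Ifit3 and Ifit3b and Ifit1bl2 between Ifit3b and Ifit1. None of them passed the test, and their median log2 fold change was 0.32. Ifit1 stood at 54.4, 50.8, 59.2, 62.0 and 65.6 CPM in the controls and at 46.2, 70.9, 106, 78.7 and 55.3 CPM with Areg. Areg 1 was lower than every control and Areg 3 was 2.29 times Areg 1, so the groups overlapped widely (58.4 ± 5.90 and 71.4 ± 23.0 CPM, SD, n = 5 each, log2 fold change 0.29, SE 0.21, edgeR adjusted p = 0.393). Ifit3 stood at 71.2, 59.5, 83.8, 71.4 and 81.9 CPM in the controls and at 56.5, 79.7, 129, 84.8 and 61.6 CPM with Areg. Here too Areg 1 was the lowest of the 10 libraries and Areg 3 the highest, and the log2 fold change was 0.16 (SE 0.23, adjusted p = 0.673).

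Ifit2, whose product also acts on translation, stood at 37.4, 32.3, 36.9, 33.7 and 41.5 CPM in the controls and at 36.9, 44.9, 65.4, 44.7 and 39.0 CPM with Areg. Areg 3 stood above the rest, and the log2 fold change was 0.35 (SE 0.15, edgeR adjusted p = 0.135), with a call by DESeq2 alone among the alternatives (adjusted p = 0.0467, against 0.0467 to 0.429 over them). Ifit3b stood at 12.3, 11.4, 16.1, 12.2 and 17.9 CPM in the controls and at 13.0, 19.3, 25.9, 17.7 and 13.1 CPM with Areg (log2 fold change 0.35, SE 0.21, adjusted p = 0.272). Areg 1, 4 and 5 lay inside the control range, and Areg 2 and 3 above it. Ifit3 and Ifit3b are near-copies, with 61.8% and 55.2% of their 31-base words found in other genes, and Ifit1 shares 10.4%, so how the reads of these genes were divided is uncertain.

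In the OAS family, whose active enzymes answer double-stranded RNA by making the activator of RNase L, none of the 5 genes passed and the median log2 fold change was 0.08. Oas1a stood at 42.9, 42.7, 62.1, 54.3 and 48.5 CPM in the controls and at 44.6, 47.3, 58.2, 49.1 and 40.9 CPM with Areg. Control 3 was the highest of the 10 libraries, and the groups overlapped over nearly the whole range (log2 fold change -0.05, SE 0.11, edgeR adjusted p = 0.79). Since 68.8% of its 31-base words occur in other genes, chiefly Oas1g, the Oas1a value is uncertain. The others were Oasl2 (0.28, adjusted p = 0.248), Oas2 (0.14, 0.562), Oas3 (0.08, 0.768) and Oasl1 (-0.09, 0.564).

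The GTPases form assemblies around viral or bacterial components, and none of the 4 passed (median log2 fold change 0.18). Mx1, which C57BL/6 mice carry as a defective allele, was scarce, at 6.54, 6.01, 4.62, 6.97 and 7.38 CPM in the controls and 5.25, 7.58, 10.2, 6.98 and 6.30 CPM with Areg. Areg 3 was again the highest of the 10 libraries, and the log2 fold change was 0.20 (SE 0.16, edgeR adjusted p = 0.436). Mx2, annotated as a polymorphic pseudogene, had 0.21 (0.407) and Gbp3 0.17 (0.174). Gbp2, a guanylate-binding protein, just missed the threshold, at 172 ± 6.61 CPM in the controls and 190.2 ± 13.4 CPM with Areg (log2 fold change 0.15, SE 0.05, adjusted p = 0.0579). It was called without Areg 1 (0.0339), without control 5 (0.0492) and without controls 3 and 4 (0.0449), among 6 of its 25 alternatives (0.0303 to 0.264).

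The group around ISG15 held 1 gene that rose, 1 that fell and the 2 largest changes that did not pass. Trim25, a ubiquitin ligase known for its part in RIG-I activation (chr11:88999376-89020293), stood at 309, 294, 312, 280.4 and 291 CPM in the controls and at 249, 245, 295, 252 and 253 CPM with Areg. Areg 3 lay among the controls and the other 4 Areg libraries below them all. Trim25 fell from 298 ± 13.1 to 259 ± 20.7 CPM (SD, n = 5 each, log2 fold change -0.20, SE 0.05, edgeR adjusted p = 0.0183). The call was lost without Areg 2 (adjusted p = 0.064), Areg 4 (0.0519) or Areg 5 (0.0525), with the length offset (0.0908) and on the TPM scales (0.0885 and 0.0878), and all 25 alternatives ran from 0.00405 to 0.0908. Trim25 rests mainly on the transcript Trim25-203, which held 77.0% of its TPM and went from 83.9 ± 6.96 to 71.0 ± 6.15 TPM.

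Herc6, the main ligase that attaches ISG15 in the mouse (chr6:57581000-57664632), stood at 20.4, 19.9, 22.2, 16.9 and 20 CPM in the controls and at 20.5, 23.6, 28.8, 24.2 and 22.8 CPM with Areg. Areg 1 lay within the control range and the other 4 above it, by little in Areg 5. The rise was 1.21-fold (19.9 ± 1.90 to 24.0 ± 3.04 CPM, SD, n = 5 each, log2 fold change 0.27, SE 0.09) and only just passed (edgeR adjusted p = 0.0497). It was lost in 16 of 25 alternatives (adjusted p 0.0258 to 0.97 over them all), among them the fits without control 1 (0.0599), 2 (0.0719), 4 (0.11) or 5 (0.0708) and without Areg 2 (0.0936), 3 (0.143), 4 (0.0932) or 5 (0.0725). On the TPM scales the direction turned (log2 fold change -0.03). The estimate for Herc6 was split over transcripts: Herc6-203, annotated as subject to nonsense-mediated decay, held 2.83 ± 2.36 TPM in the controls and 0.447 ± 1.00 TPM with Areg, while Herc6-201 held 5.45 ± 0.533 and 6.58 ± 0.974 TPM.

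Isg15, at 756 bases among the shortest of these transcripts, stood at 95.0, 116, 151, 114 and 129 CPM in the controls and at 112, 109.5, 132, 109 and 111 CPM with Areg. The 5 Areg libraries lay inside the control range, and the gene did not pass (121 ± 20.8 and 115 ± 9.67 CPM, or -0.07 on the log2 scale, SE 0.10, edgeR adjusted p = 0.673). Of the 31-base words of Isg15, 13.1% occur in other genes, chiefly AC151275.1 (10.2%), so its value is uncertain to that extent. Usp18, the protease that removes ISG15 and also blocks the type I receptor, stood at 15.5, 13.5, 23.2, 20.9 and 18.5 CPM in the controls and at 14.7, 20.8, 30.7, 24.6 and 16.5 CPM with Areg. The groups overlapped (log2 fold change 0.25, SE 0.22, adjusted p = 0.497).

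Parp14, an ADP-ribosyltransferase, stood at 138, 118, 110.3, 130.1 and 140.3 CPM in the controls and at 129, 167, 207, 177 and 143 CPM with Areg. Only Areg 1 lay within the control range. The log2 fold change of 0.37 (SE 0.12) was the largest of the 35 and did not pass (edgeR adjusted p = 0.0615), but it passed without Areg 1 (0.0108), without Areg 5 (0.0487) and in 5 of 25 alternatives in all (0.00666 to 0.273). Dtx3l, the ubiquitin ligase partner of PARP9, stood at 25.4, 20.8, 19.1, 22.6 and 27.1 CPM in the controls and at 20.7, 30.4, 38.9, 34.7 and 23.8 CPM with Areg. Areg 1 and Areg 5 lay within the control range (log2 fold change 0.36, SE 0.17, adjusted p = 0.183), and the gene was called only without Areg 1 (0.0369, the lowest of its alternatives, which reached 0.497). Parp9 (0.28, adjusted p = 0.115) was likewise called only without Areg 1 (0.0184, in a range up to 0.358). Dtx3l and Parp9 overlap on opposite strands, and the strand setting of the counting is not given in the sources used here, so reads in that overlap cannot be assigned with certainty.

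None of the 8 other effectors passed, and their median log2 fold change was 0.12. Rsad2 stood at 327, 309, 310, 319 and 323 CPM in the controls and at 297, 339, 444, 354 and 296 CPM with Areg. Its controls differed by no more than 1.06-fold, while Areg 1 and 5 lay below all controls and Areg 2, 3 and 4 above them (log2 fold change 0.12, SE 0.09, edgeR adjusted p = 0.384). Bst2, or tetherin, which holds budding virions at the cell surface, stood at 48.5, 54.9, 71.9, 60.7 and 58.9 CPM in the controls and at 60.4, 57.4, 64.1, 54.6 and 52.2 CPM with Areg. Its Areg libraries lay inside the control range (log2 fold change -0.02, SE 0.09, adjusted p = 0.887).

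The remaining effectors were Xaf1 (0.26, 0.0802), a promoter of apoptosis that was called without Areg 1 (0.0377) and without Areg 5 (0.0332), Rtp4 (0.25, 0.297), Cmpk2 (0.25, 0.344), Ifi44 (0.13, 0.70), Ifi35 (0.12, 0.325) and Ifi27 (-0.09, 0.468). The adjusted p of Xaf1 ran from 0.0332 to 0.468 over its 25 alternatives. Cmpk2, a nucleotide kinase, lies 12.8 kb from Rsad2.

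Within the Areg group, most of the genes followed much the same order of libraries. Areg 3 was the highest of the 5 for 34 of the 35 genes (97.1%), against 18.9% of all genes tested, and Ifi27 was the exception, with Areg 1 highest. Areg 1 was the lowest for 24 (68.6%, against 20.2%) and Areg 5 for 8. Areg 2, 3 and 4 all stood above Areg 1 and 5 for 29 of the 35 (82.9%), against 10.9% of all genes tested. The full order of Areg 3, then 4, then 2 held for 22 (62.9%, against 2.01%). Controls showed no such single leader, though they too shared part of an order. Control 3 and control 5 were each the highest for 13 genes (37.1%, against 28.2% and 15.9% of all genes tested). Control 2 was the lowest for 15 (42.9%, against 15.4%) and control 1 for 12 (34.3%, against 21.8%).

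**Figure D3:**
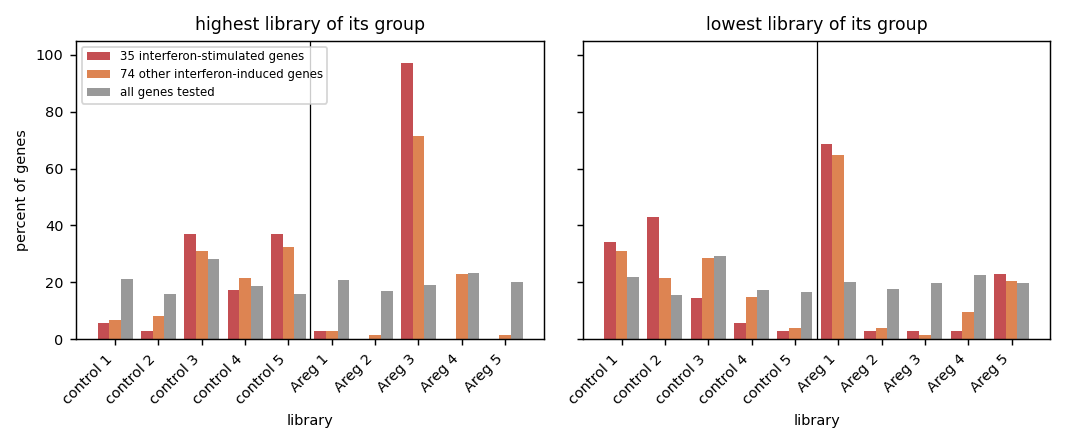
Percent of genes for which each library was the highest (left) or the lowest (right) of its own group, for the 35 genes, 74 other interferon-induced genes and all genes tested. Areg 3 was the highest Areg library for 97.1% of the 35 genes and 18.9% of all genes tested, and Areg 1 the lowest for 68.6% and 20.2%.

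Set against the mean of the controls, the median gene of the 35 stood at -0.12, 0.19, 0.53, 0.24 and -0.06 on the log2 scale in Areg 1 to 5 and at -0.05, -0.11, 0.05, 0.05 and 0.06 in controls 1 to 5. Areg 5 was thus within the spread of the controls and Areg 1 just below it, while Areg 2, 3 and 4 were above it. Over all genes tested, the median stayed between -0.01 and 0 in every library. For the IFIT genes alone, Areg 3 was at 0.85 and Areg 1 at -0.22. Areg 3 exceeded the highest control for 26 of the 35 genes (74.3%, against 19.5% of all genes tested) and Areg 4 for 23 (65.7%, against 21.6%). Areg 1 did so for 2 (5.71%, against 19.2%) and fell below the lowest control for 9 (25.7%, against 18.9% of all genes tested).

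**Figure D4:**
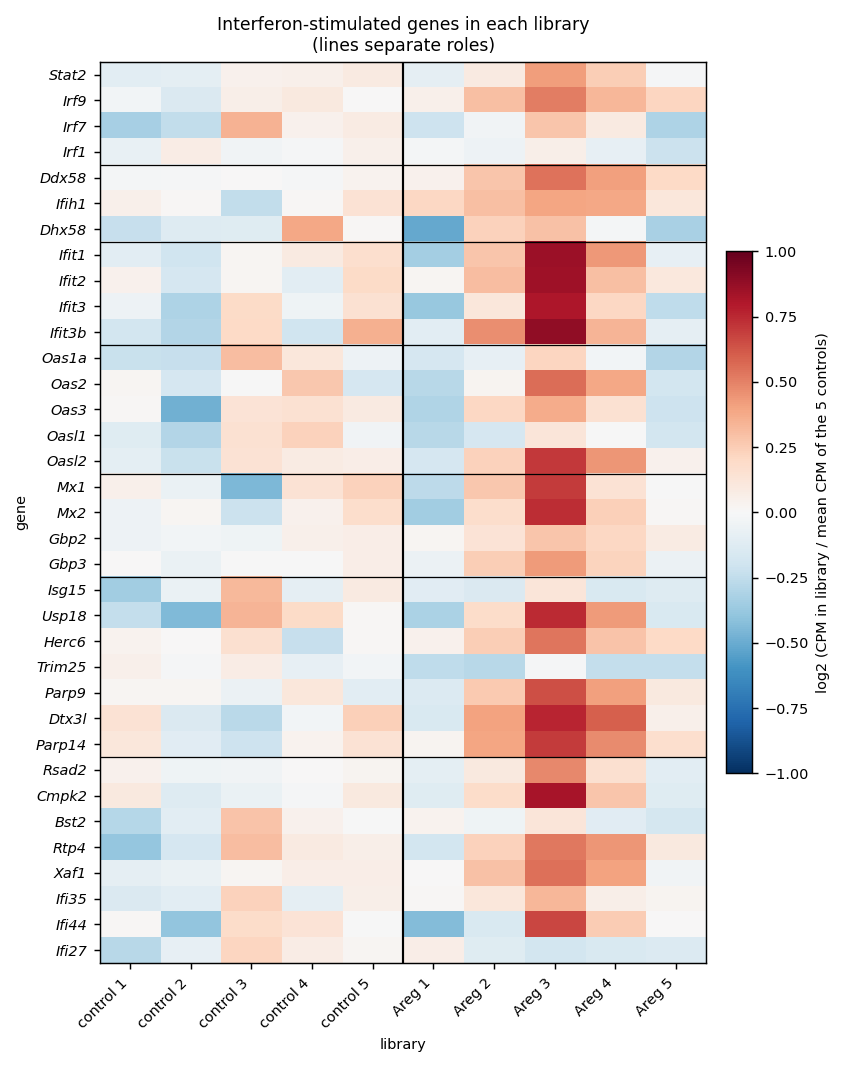
Log2 ratio of each gene's CPM to its control mean, for the 35 genes (down) in the 10 libraries (across), with the colour scale in log2 units. In the Areg 3 column the median gene is at 0.53, and in the Areg 1 column at -0.12.

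The spread between Areg libraries was wider than that between controls. The highest Areg library was a median of 1.51 times the lowest (1.19 for Ifi27 to 2.29 for Ifit1), against 1.31 among the controls. It was wider in the Areg group for 27 of the 35 (77.1%), whereas this was so for 24.2% of all genes tested. Areg 3 exceeded Areg 1 most for Ifit1 (2.29-fold), Ifit3 (2.28-fold), Ifi44 (2.14-fold), Mx2 (2.12-fold) and Usp18 (2.08-fold). Total estimated counts in Areg 1 to 5 were 17994114, 19864632, 20057962, 14365027 and 18505132, so Areg 3 was the deepest and Areg 4 the shallowest. Summed macrophage markers in Areg 1 to 5 were 792, 763, 837, 817 and 810.2 TPM. Areg 3 had the highest macrophage sum of the Areg group, within the 799 to 873 TPM of the controls, and Areg 2 the lowest. Of 8 markers of plasmacytoid dendritic cells, a known source of interferon, 4 were at 1 TPM or more: Bst2 (161 TPM, itself one of the 35 genes), Tcf4 (127 TPM), Ly6d (2.13 TPM) and Cox6a2 (1.22 TPM). The other 4, Ccr9 (0.205 TPM), Spib (0.16 TPM), Siglech (0.0729 TPM) and Klk1 (0 TPM), were below it. The 8 summed to 277 to 312 TPM in the controls and 267 to 314 TPM with Areg, highest in Areg 3. In Areg 1 to 5 the sums were 292, 283, 314, 284 and 267 TPM. The part of depth or of other cells in the order of the libraries was not tested.

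The size of the difference between the groups turned on these libraries. Without Areg 3, the median log2 fold change of the 35 dropped to 0.06, with 3 genes called higher and 1 lower (11.4% of the 35 against 12.9% of all genes tested in that fit), and Ifit3 (-0.06), Ifi44 (-0.06) and Oas3 (-0.01) changed sign. Without Areg 1 it was 0.27, with 9 called higher and 1 lower, 28.6% of the 35 against 13.7% of all genes tested in that fit. The 5 that joined were Parp9, Gbp2, Parp14, Xaf1 and Dtx3l. Without controls 3 and 4 the median was 0.22 with 33 of 35 positive, and 4 were called (Irf9, Ifih1 and Gbp2 higher, Trim25 lower), 11.4% against 15.9%. On the TPM scale, limma-trend called 0 of the 35 (6 at an unadjusted p under 0.05 with a pseudocount of 1 and 7 with 0.1), against 6.41% and 6.5% of all genes tested. DESeq2 called 7 higher and 1 lower (22.9% against 21.5%), and edgeR with a transcript length offset called 2 higher (Parp14 and Ddx58, 5.71% against 8.6%).

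**Figure D5:**
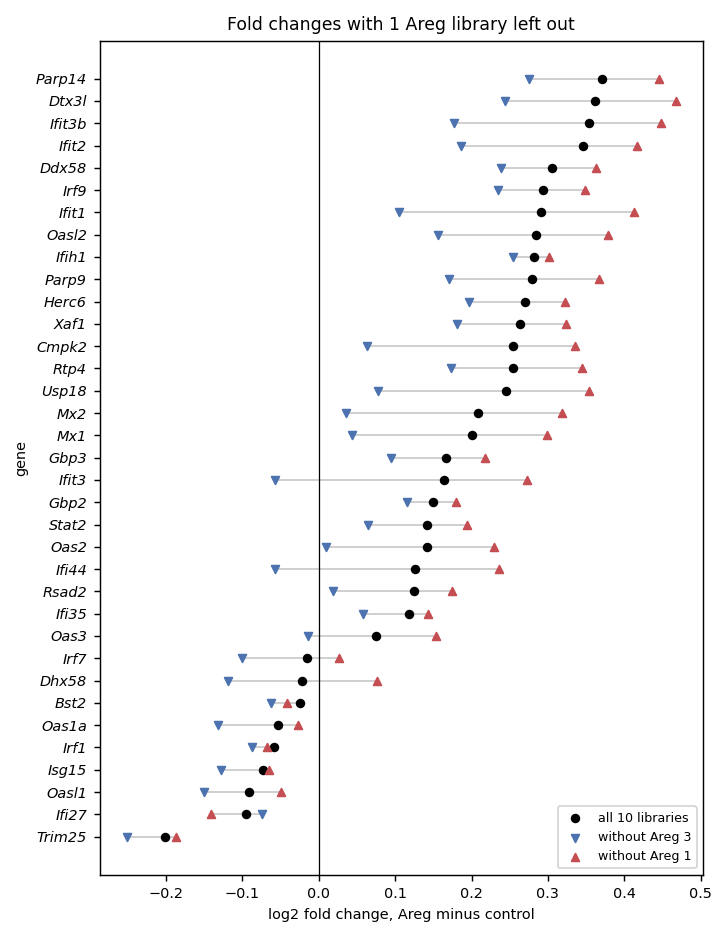
Log2 fold change of each of the 35 genes with all libraries, without Areg 3 and without Areg 1. The values without Areg 3 are lower overall (median 0.06 against 0.17), and those without Areg 1 are higher (median 0.27).

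Genes with and without a match to the paired GAAA core were set side by side as a description, with no test. The 13 genes with a match had a median log2 fold change of 0.15 and a median Areg 3 to Areg 1 ratio of 1.41, and the 13 with a window and no match had 0.25 and 1.40. Isg15 and Ifit1, whose stretches hold 3 and 2 matches, differed widely in how Areg 3 stood: it was 1.18 times Areg 1 for Isg15 and 2.29 times for Ifit1.

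Of 138 other genes of the interferon pathway, 113 were tested, of which 21 rose and 1 fell, with a median log2 fold change of 0.10. The genes called made up 19.5% of the 113, against 16.7% of all genes tested. Nearly all of them rose, whereas the calls over all genes tested were split evenly (8.34% higher and 8.32% lower). No interferon ligand gene of 21 listed was testable, and 13 had no count in any library. Ifnb1, the main fibroblast interferon, had 0 to 6 estimated counts per library, 11 in all controls and 21 in all Areg libraries. The Areg libraries were deeper on average. Scaled for depth, Ifnb1 stood at 0.163 ± 0.13 CPM in the controls and 0.235 ± 0.0564 CPM with Areg. None of the 5 receptor genes tested was called, including Ifnar1 (99.4 ± 6.26 and 96.1 ± 4.01 CPM, adjusted p = 0.563) and Ifnar2 (235 ± 11.3 and 227 ± 6.52 CPM, adjusted p = 0.455). Jak2, a receptor-bound kinase, rose, with 333 ± 46.9 CPM in the controls and 437 ± 19.6 CPM with Areg (0.39 on the log2 scale, adjusted p = 0.00476).

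Among 11 restrainers of interferon signalling tested, 3 rose (27.3%, against 8.34% of all genes tested). Socs3, an inhibitor of JAK kinases that other cytokines also induce, rose, with 295 ± 13.4 CPM in the controls and 425 ± 33.8 CPM with Areg (0.52 on the log2 scale, edgeR adjusted p = 2.1e-05), and Rnf125, a ligase that marks RIG-I for degradation, from 84.8 ± 6.98 to 102 ± 8.22 CPM (0.27, adjusted p = 0.0106). Ptpn2, a phosphatase of JAK and STAT proteins, was the third (adjusted p = 0.049). Irf2bp1, a corepressor, was the gene that fell (30.5 ± 3.74 to 24.8 ± 1.44 CPM, -0.29, adjusted p = 0.0171).

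A further 74 interferon-induced genes were tested, of which 17 rose and 0 fell (23.0%, median log2 fold change 0.18), against 16.7% of all genes called and 8.34% called higher. Among them were 4 members of the PYHIN family on chromosome 1, whose products include DNA sensors: Ifi203 (129 ± 14.6 to 201 ± 29.6 CPM, 0.64 on the log2 scale, edgeR adjusted p = 0.00215), Ifi211 (0.50, 0.00151), Ifi205 (0.49, 0.00371) and Ifi204 (0.44, 0.00169). These genes are similar in sequence, so the split of reads between them is uncertain. Pnpt1, a mitochondrial RNA-degrading enzyme, rose from 30.6 ± 1.45 to 40.5 ± 1.61 CPM (0.40, adjusted p = 0.00023). Plscr1 (0.32, 0.00168), Iigp1 (0.40, 0.00567), Gbp4 (0.49, 0.00802) and Slfn9 (0.42, 0.0113) also rose. Gbp4 overlaps Gbp8 and Gbp9 on the same strand, so the split of reads is uncertain there. Sequence that Gbp4 and Slfn9 share with other genes of their families was not measured. Cxcl10, a chemokine, did not pass (63.8 ± 7.90 and 76.9 ± 15.5 CPM, adjusted p = 0.208). In these 74 genes Areg 3 was the highest Areg library for 53 (71.6%) and Areg 1 the lowest for 48 (64.9%). Without controls 3 and 4, Ifi204 (adjusted p = 0.0543) and Gbp4 (0.113) were no longer called, and Jak2, Rnf125, Gbp4 and Slfn9 were not called on the TPM scales. Over all 25 alternatives the adjusted p ran from 6.86e-06 to 0.0543 for Ifi204, from 0.000382 to 0.156 for Gbp4 and from 0.00339 to 0.103 for Slfn9.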

How the data were processed

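Polyadenylated RNA of 5 control and 5 Areg libraries was analysed. For each transcript, the deposited files give the estimated counts of the authors' kallisto run, which are not always whole numbers. They also give TPM, which the authors' run scaled to length and to a common total, per the file headers. Transcript and effective lengths stand beside them. From the submitters' processing notes come bcl2fastq 2.19, kallisto 0.44.0, DESeq2 and, as build, GRCm38.p6. Their roles, the transcript set and the strand setting: not given in the sources used here.

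Of 118489 transcripts, 116816 were joined to 36047 genes through GENCODE M21, which also gave the coordinates. The remaining 1673, with 0.736 to 0.778% of estimated counts, were left out. Estimated counts were summed per gene and rounded. No replicates were merged, since every pair had a chi-square of 3.74 to 50.464 for each degree of freedom. Groups were compared with edgeR 4.0.16 in R 4.3.3 (quasi-likelihood, robust, TMM factors, filterByExpr with a minimum count of 10 and a total of 15, no covariates), with Benjamini-Hochberg adjustment over 13362 genes and a threshold of 0.05. The biological coefficient of variation was 9.37%. On simulated data for this comparison with 200 of 13362 genes changed, 38% of 1.25-fold, 72% of 1.5-fold and 89% of 2-fold changes were recovered, and 6.2% of calls were false. Recovery of smaller changes was not simulated.

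The genes, the other lists and the tests were chosen with earlier results of these data known. Values in every library are given for genes called, the 3 with the highest mean TPM, the 3 largest log2 fold changes that did not pass, and Isg15, Ifit1, Ifit3, Ifit3b, Rsad2, Mx1, Oas1a, Usp18, Irf7 and Stat2. Of the pathway list, the 12 called genes with the smallest p are named, plus Ifnar1, Ifnar2, Ifnb1 and Cxcl10. For 1 more gene under this rule, values are not reported here. Ptpn2 and Irf2bp1 were named after their values were seen. The alternatives were other scalings and filters, DESeq2 1.42.0, limma 3.58.1 (voom, and trend on log2(TPM + 1) and log2(TPM + 0.1)), a transcript length offset, removal of a length and GC trend, sva 3.50.0 with 1 surrogate variable, a replicate block, and fits without single libraries or without controls 3 and 4.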

Additional observations from a re-analysis of the deposited data

Results flagged for a closer look

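Among the 35 genes in 2 groups of 5 libraries, 70 sets of values were checked for a library whose gap to its nearest neighbour exceeded 0.71 of the group's whole range. There were 5 such libraries, and chance gives about 1 in 20, or 3.5 of 70. Ifit2 in Areg 3 stood at 65.4 CPM, with the other Areg libraries at 36.9 to 44.9 CPM. Isg15 in Areg 3 stood at 132 CPM, with the others at 109 to 112 CPM. Trim25 in Areg 3 stood at 295 CPM, with the others at 245 to 253 CPM. Oas3 in control 2 stood at 5.28 CPM, with the other controls at 7.44 to 8.18 CPM. Ifi27 in Areg 1 stood at 28.1 CPM, with the other Areg libraries at 23.6 to 24.7 CPM.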

How the results depend on the processing

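Of the 5 genes called, Irf9 and Ifih1 lost their calls in 3 of 25 alternatives each. Herc6 turned direction with the transcript length offset (-0.01), log2(TPM + 1) (-0.03) and log2(TPM + 0.1) (-0.03), scales that divide counts by estimated transcript lengths. All genes called numbered 2226, and 1149 with the length offset, 856 with log2(TPM + 1) and 868 with log2(TPM + 0.1). Leaving out 1 library gave 1364 to 2314. The 4 interferon-stimulated genes called higher became 7 with DESeq2, 2 with the length offset, 0 on either TPM scale, 2 with the length and GC trend removed and 3 to 9 with 1 library left out. The 1 called lower became 0 with the length offset and on either TPM scale, and 0 to 1 with 1 library left out. Pathway genes called higher (21) were 13 with the length offset and 8 on either TPM scale. Those called lower (1) were 2 with upper quartile factors, 3 with DESeq2, 2 with the likelihood-ratio test, 2 on either TPM scale, 0 without controls 3 and 4, and 0 to 5 with 1 library left out. The cause was not tested for these.

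No clear pairing by replicate number was seen (correlation of deviations between same-numbered libraries -0.046 to 0.144, own number best for 2 of 5). With 5 libraries in each group, this check cannot exclude a pairing. With the replicate number as a block, 2357 genes were called, the interferon-stimulated genes numbered 5 higher and 1 lower, and 4 pathway genes were lower. Rtp4 (adjusted p = 0.0173) and Cxcl10 (0.0348) were called under this replicate block.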

Other observations

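Areg 3 was set against the highest of the other Areg libraries for 10093 genes averaging 5 CPM or more, a measure chosen after the data were seen. Over all of them the median ratio was 0.944. All 35 interferon-stimulated genes were among the 10093. The 50 genes with the largest ratios (1.19 to 2.26) held 11 of these 35 and 15 other genes of the pathway list. How many genes of the pathway list were among the 10093 was not counted. Genes outside both lists included Pgk1-rs7 (2.26), Rsc1a1 (1.67), Timd4 (1.27), Siglec1 (1.26) and Rnf213 (1.23), named by no fixed rule. Both lists are selections, so a gene outside them may still be interferon-induced. Siglec1 and Timd4 are known from resident macrophages. Timd4 is 1 of the 12 macrophage markers checked, and the other markers were not among the 50 genes. The summed macrophage markers in Areg 3 were 837 TPM, within the 799 to 873 TPM of the controls. The part of those cells was not tested.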
